A study of Homo sapiens with 6 samples.

Results

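A group of annotated human miRNAs matches pieces of structural RNAs, above all the 3′ ends of transfer RNAs and a stretch of the U2 small nuclear RNA. The names hsa-miR-4454, hsa-miR-720, hsa-miR-1246, hsa-miR-1290, hsa-miR-1260, hsa-miR-1260b, hsa-miR-1274a, hsa-miR-1274b and hsa-miR-1280 were taken as this group, and a probe was included where its printed name was one of these 9. On the arrays 7 of the 9 names had a probe, with 1 spot each, among 1719 human miRNA probes. No probe carried the names hsa-miR-1274a or hsa-miR-1274b, and these 2 were not analysed here. The 7 miRNAs were measured in HK-2 cells, an established human proximal tubular epithelial line, after 48 h with aristolochic acid at 5 µg/ml (3 arrays, AA 1 to 3) and after 48 h without it (3 arrays, control 1 to 3). Both groups were kept in medium with 0.2% fetal calf serum during that time. Aristolochic acid, a compound of Aristolochia plants, binds DNA and damages the renal tubule, and the series asked which miRNAs differ after exposure. The labelled input was 500 ng of total RNA a sample, and each Cy5-labelled sample was read on a single-colour array of its own. The labels do not say that the replicates were separate cultures, so p-values cover only the spread among these 6 samples, and part or all of it may be technical.

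Transfer RNAs carry amino acids to the ribosome, and their mature 3′ end is the added triplet CCA. Cells cut transfer RNAs into shorter fragments, in part under stress, and such fragments can be taken for miRNAs in small RNA libraries because of their size. In the literature miR-720 has been matched to threonine transfer RNA, miR-1260 and miR-1280 to leucine transfer RNA, miR-1274a and miR-1274b to lysine transfer RNA and miR-4454 to histidine transfer RNA. Several of these entries were later withdrawn from the miRNA registry. U2 small nuclear RNA pairs with the branch point of introns in the spliceosome, and miR-1246 has been traced to it. Total RNA holds the parent RNAs as well, so a probe's intensity here cannot be assigned to a processed miRNA, to a fragment or to the parent RNA.

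The mature sequences of 5 of the 7 miRNAs were read from RefSeq (GRCh38.p14) and are shown because they bear on which of these 5 could share signal. No mature sequence of miR-720 or miR-1280 was at hand. Whether either is like another member in sequence was therefore not examined. Capitals mark the seed, bases 2 to 8, and the 5′ end is on the left. The array name hsa-miR-1260 was matched to the gene MIR1260A through its older synonym.
hsa-miR-4454: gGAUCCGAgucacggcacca
hsa-miR-1260 (hsa-miR-1260a): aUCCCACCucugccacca
hsa-miR-1260b: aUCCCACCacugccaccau
hsa-miR-1246: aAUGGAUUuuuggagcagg
hsa-miR-1290: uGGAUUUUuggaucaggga
The sequences of miR-4454 and miR-1260 end in CCA, as do 45 of the 2370 mature names in the RefSeq table (1.9%). From their shared 5′ end miR-1260 and miR-1260b are identical at 17 of 18 compared bases and differ by U9A, counted from the 5′ end with the base of miR-1260 first. They share the seed UCCCACC, which no other mature name in the table has.

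The mature sequence of miR-4454 lies at chr4:163093607-163093626 on the minus strand, and no other gene in the RefSeq table spans it. That of miR-1260 lies at chr14:77266231-77266248 on the plus strand, within the span of NGB, which encodes neuroglobin. The sequence of miR-1260b is at chr11:96341447-96341465 on the plus strand, within the span of MAML2, a Notch coactivator gene. For miR-1246 the position is chr2:176601024-176601042 on the minus strand, outside other listed genes, and for miR-1290 it is chr1:18897078-18897096 on the minus strand, within the span of ALDH4A1, a proline catabolism gene. The exons of these host genes were not used here.

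The pair miR-1246 and miR-1290 is drawn again with capitals on the longest stretch that both hold.
hsa-miR-1246: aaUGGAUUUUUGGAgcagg
hsa-miR-1290: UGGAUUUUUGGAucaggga
The stretch is 12 bases long, covers bases 3 to 14 of miR-1246 and bases 1 to 12 of miR-1290, and is held by 2 of the 2370 mature names, which are these. Their seeds differ because the shared bases are offset by 2. The probe sequences were not used here, so how far one probe of a like pair takes up the other miRNA was not tested.

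The treated arrays were brighter, and this bears on every level below. Summed over the detected human probes, the background-subtracted signal was 108515 to 120739 on the AA arrays and 80088 to 101889 on the control arrays. The spike-in spots averaged 12.24 ± 0.129 on the log2 scale with AA and 11.98 ± 0.123 in control (SD, n = 3 each). The median background-subtracted intensity of the 503 probes detected on all 6 arrays was 22.1 ± 1.14 with AA and 15.4 ± 1.02 in control. Between 644 and 936 human probes were detected per array, where detected means that the authors kept a background-subtracted value. Of the marker miRNAs, 5 of 6 epithelial and 4 of 4 kidney tubule names were detected on all 6 arrays, against 6 of 14 probes for blood, muscle, nerve, liver, stroma and endothelium. In the last of these lists miR-451 of red cells and miR-124 of neurons were detected on no array. The 6 detected on all arrays were miR-142-3p of blood, miR-1 and miR-133a of muscle, miR-9 of nerve, miR-145 of stroma and miR-126 of endothelium. In background-subtracted intensity that list summed to 172.0 to 201 with AA and 116 to 147 in control. The epithelial list summed to 414 to 465 with AA and 287 to 332 in control, and the kidney tubule list to 775 to 880.3 with AA and 576 to 618 in control. Most of the kidney tubule sum was miR-30a, at a mean of 636, against 29.2 for miR-192, 25.6 for miR-194 and 16.5 for miR-215. All 3 sums, which are not scaled for array brightness, were higher with AA. Their part in the results was not tested.

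The 7 probes were among the brightest on the arrays. The 5 brightest human probes by mean intensity were miR-4454, miR-21, miR-1260b, miR-4286 and miR-720, so 3 of the 5 belong to the group. Their places on single arrays were 1 on every array for miR-4454, 2 to 4 for miR-1260b and 4 to 7 for miR-720. Places for miR-1246 were 6 to 10, for miR-1280 6 to 9 and for miR-1260 9 to 11. Only miR-1290 lay further down, at places 21, 20 and 16 on the AA arrays and 36, 26 and 34 on the control arrays. Intensity depends on the probe as well as on the RNA, so places show brightness and not the order of abundance.

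Together the 7 probes held about as much signal as all other human probes. Their share of the summed signal was 48.2%, 49.0% and 49.9% on the AA arrays, against 54.6%, 55.1% and 60.6% on the control arrays. The mean share was 49.0 ± 0.834% with AA and 56.8 ± 3.30% in control, and the groups did not overlap. On control 3 the bright probe of miR-21 was low, at a background-subtracted intensity of 1313 against 9911 and 8177 on controls 1 and 2. With miR-21 left out of the total the share was 54.8 ± 0.477% with AA and 60.8 ± 0.680% in control. Without background subtraction it was 35.8 ± 0.236% with AA and 39.4 ± 3.52% in control, so the difference was smaller, at -3.57 against -7.76 percentage points.

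**Figure D1:**
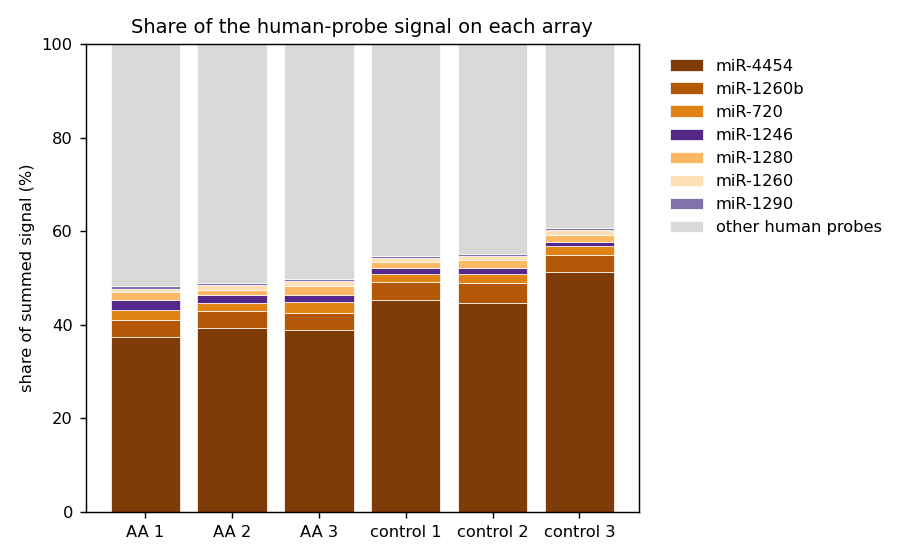
Share of the summed background-subtracted signal of detected human probes (%, vertical axis) held by each of the 7 miRNAs on each array, with all other human probes in grey. miR-4454 takes 37.3% to 39.4% on the AA arrays and 44.6% to 51.2% on the control arrays.

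Most of this share, and its whole difference, belonged to miR-4454. It held 38.5 ± 1.07% of the signal with AA and 47.0 ± 3.62% in control. The other 6 members together held 10.5 ± 0.792% with AA and 9.73 ± 0.646% in control, and there the groups overlapped. In background-subtracted intensity before any scaling, the signal of miR-4454 was nearly level between the groups while that of the other human probes was not. The detected human probes outside the 7 summed to 58266 ± 3622 with AA and 40080 ± 7605 in control, a ratio of means of 1.45. For miR-4454 that ratio was 1.02, and for the other 6 members together it was 1.34. On these unscaled intensities the lower share of miR-4454 on the AA arrays therefore stood beside a larger sum of the other probes. Relative to the spike-ins, which were also brighter with AA, miR-4454 itself was lower on every AA array, at a ratio of 0.854.

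The probe of miR-4454 had background-subtracted intensities of 42340, 47536 and 42099 on the AA arrays, against 46153, 42204 and 41015 on the control arrays. The groups overlapped, and the coefficient of variation over the 6 arrays was 6.03%, below that of every other probe among the 503 detected on all arrays, whose median was 25.6%. After scaling to the shared median of 25, its values were 48099, 51066 and 50120 with AA and 70694, 68256 and 71736 in control, so every AA array was below every control array. On that scale the ratio of AA to control was 0.709, with a log2 difference of -0.50 (SE 0.13, limma adjusted p = 0.129). Relative to the spike-ins the log2 difference was -0.23 (SE 0.18, limma adjusted p = 0.529). Quantile normalization gives the brightest probe of each array the same value, so its difference of 0 for miR-4454 is set by the method.

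The deposited intensity of miR-4454 was a whole number on all 6 arrays, and it was the 1 human probe of which this held. Above an intensity of 1000, the only other whole value was 1 quality-control spot on 5 of the arrays. On each array these whole values were brighter than every value with decimals. The dimmest whole value was 15383, on control 3, where the brightest value with decimals was 4693. The brightest value with decimals was 16493, on AA 1, where the whole value was 42402. How the whole values were made is not given in the sources used here, and their part in the flat intensity of miR-4454 was not tested.

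The pair with the shared stretch, miR-1290 and miR-1246, were the members with the largest ratios of background-subtracted intensity. For miR-1290 the background-subtracted intensity was 517, 554 and 595 on the AA arrays, against 302, 317 and 277 on the control arrays. Every AA array was above every control array, and the ratio was 1.86. Scaled intensities were 630 ± 67.8 with AA and 487 ± 25.6 in control (SD, n = 3 each), a ratio of 1.29, again without overlap. With quantile normalization the log2 difference of miR-1290 was 0.41 (SE 0.081), and limma's adjusted p of 0.0743 did not pass the threshold of 0.05. Among the 625 tested probes it ranked 14 by p.

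The probe of miR-1246 had 2346, 2062 and 1796 on the AA arrays, against 1472, 1269 and 770 on the control arrays, a ratio of 1.82. The groups did not overlap before scaling, but they did on the scaled intensities, at 2339 ± 285 with AA and 1884 ± 476 in control. Its quantile-normalized log2 difference was 0.36 (SE 0.18, limma adjusted p = 0.382), and control 3 was its lowest array on each scale. Without control 3 that difference was 0.14. Relative to the spike-ins both probes lay higher on every AA array than on any control array, with ratios of 1.56 for miR-1290 and 1.53 for miR-1246. On that scale limma's adjusted p was 0.0919 for miR-1290 and 0.211 for miR-1246.

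**Figure D2:**
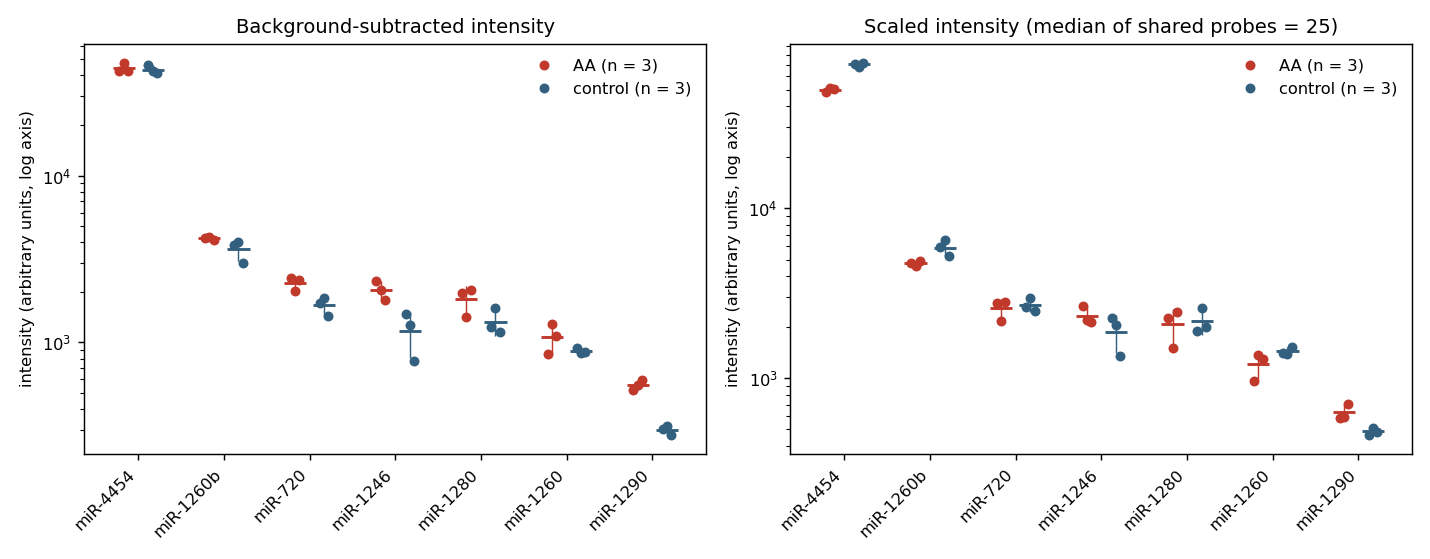
Intensity of each miRNA on each array (log axes, arbitrary units), background-subtracted on the left and scaled to a shared median of 25 on the right, with 3 AA and 3 control points per miRNA, the mean as a bar and 1 SD as a line. miR-1290 is higher with AA in both panels, whereas miR-4454 overlaps on the left and is lower with AA on the right.

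The transfer RNA types miR-720, miR-1280, miR-1260 and miR-1260b had smaller ratios of background-subtracted intensity, at 1.17 to 1.37, and the sign of their log2 differences depended on the scaling. For miR-720, the threonine type, the background-subtracted intensity was 2449, 2025 and 2351 on the AA arrays and 1722, 1844 and 1432 on the control arrays. The AA arrays were all higher by this measure, yet on the scaled intensities the groups overlapped at 2585 ± 355 with AA and 2708 ± 247 in control. With quantile normalization its log2 difference was -0.29 (SE 0.18, limma adjusted p = 0.486), and -0.07 without control 3.

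The leucine-type miR-1280 had 1991, 1411 and 2059 on the AA arrays and 1242, 1597 and 1153 on the control arrays, where AA 2 lay below control 2. On the scaled intensities it had 2076 ± 495 with AA and 2168 ± 364 in control, the widest AA spread relative to the mean among the 7 miRNAs. Quantile normalization gave a log2 difference of -0.09 (SE 0.13, limma adjusted p = 0.754), and -0.05 without control 3.

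The second leucine type, miR-1260, had 849, 1285 and 1092 on the AA arrays and 925, 861 and 875 on the control arrays. AA 1 was the lowest of the 6 arrays and AA 2 the highest. Its near copy miR-1260b had 4224, 4280 and 4120 on the AA arrays, against 3857, 4015 and 2994 on the control arrays. The AA arrays of miR-1260b were close together and all above the controls, among which control 3 stood lowest. Scaled to the shared median, both probes were lower on every AA array than on any control array, at 1215 ± 221 with AA and 1446 ± 73.5 in control for miR-1260, and at 4767 ± 156 with AA and 5880 ± 629 in control for miR-1260b. Their quantile-normalized log2 differences were -0.31 (SE 0.14, limma adjusted p = 0.353) and -0.49 (SE 0.31, limma adjusted p = 0.501). Without control 3 they were -0.15 and -0.06, and with quantiles taken from the probes outside the group they were -0.20 and -0.07. On control 3 miR-1260b was at place 2, and its normalized log2 value was 13.1, against 11.6 to 11.9 on the other arrays. The difference of -0.49 thus rests largely on that place on 1 array.

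None of the 7 miRNAs passed the adjusted p of 0.05 in the limma fit with quantile normalization (0 of 7), where 0.960% of the 625 tested probes passed. At an unadjusted p under 0.05 there was 1 of 7, miR-1290, against 15.0% of all tested probes. Their median log2 difference was -0.09, and that of all tested probes was -0.01. On the scaled intensities 0 of 7 passed (0.994% of 503 probes) and 2 of 7 had an unadjusted p under 0.05, miR-4454 lower and miR-1290 higher (13.5% of all). With the spike-ins as the scale 0 of 7 passed as well (3.98%), and 2 of 7 had an unadjusted p under 0.05, miR-1246 and miR-1290, both higher (17.5% of all). Median scaling called 1 of 7, miR-1290 as higher, with 5.92% of all probes called and 5.12% called as higher. With the 75th percentile 3 of 7 were called, miR-1290 and miR-1246 higher and miR-4454 lower, with 39.2% of all probes called and 6.08% called as higher, and the median of all probes moved to -0.11. Without normalization between arrays 3 of 7 were called as higher, miR-1290, miR-1246 and miR-720, with 49.6% of all probes and a median of all probes of 0.14.

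The plot of differences by scaling shows what these choices did to each miRNA. The differences of miR-1290 and miR-1246 were above 0 under each of the 28 alternatives run, at 0.23 to 0.79 and 0.11 to 0.83. For miR-720, miR-1280, miR-1260 and miR-1260b they ran from -0.38 to 0.44, from -0.22 to 0.43, from -0.40 to 0.25 and from -0.70 to 0.23. The difference of miR-4454 ran from -0.63 to 0.03 over 27 alternatives. It was below 0 in 13 and above 0 in 1, and in the rest quantile normalization set it to 0. Alternatives that changed only the filter, variance model, block or threshold kept each member's difference, so no sign could change there. Relative to the median of all probes, miR-1290 stood 0.33 to 0.65 higher and miR-1246 0.34 to 0.69 higher under the 7 scalings drawn. On the same footing miR-720 ran from -0.28 to 0.30 and miR-1280 from -0.08 to 0.29, and on the scaled intensities both were within 0.01 of that median.

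**Figure D3:**
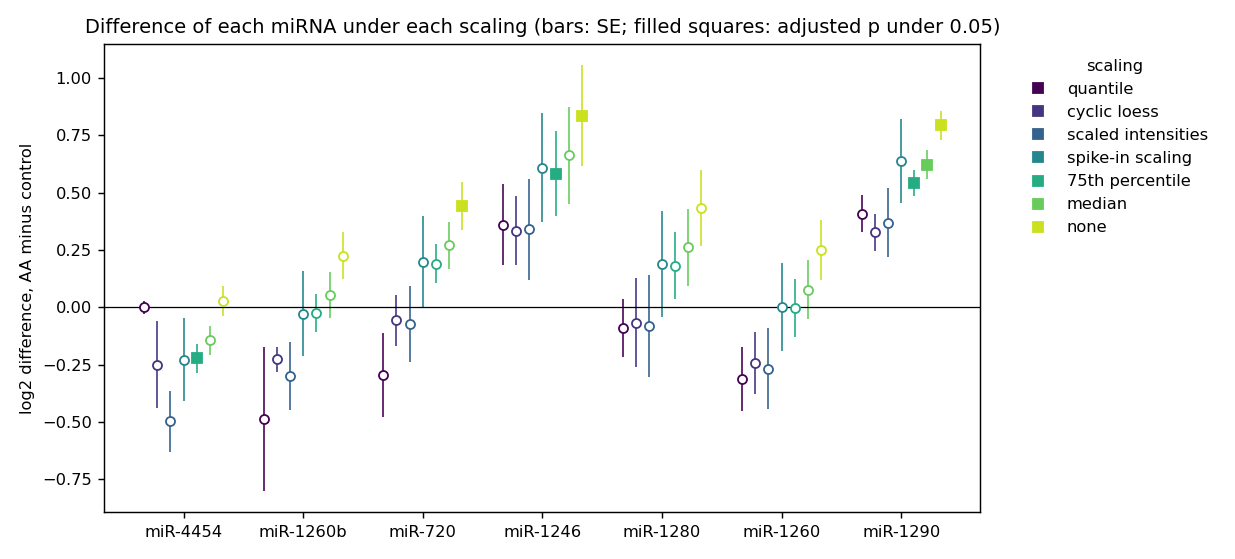
Log2 difference, AA minus control (vertical axis), of each miRNA under 7 scalings in colour, with SE as bars and filled squares where limma's adjusted p is under 0.05. miR-1290 and miR-1246 lie above 0 under all 7, while miR-720, miR-1280, miR-1260 and miR-1260b fall on both sides of 0.

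Counted without a model, 4 of the 7 had every AA array above every control array in background-subtracted intensity, where 53.7% of the 503 probes did, and 0 of 7 had the reverse (0.199% of all). On the scaled intensities 1 of 7 was above (8.75% of all) and 3 of 7 were below (14.1% of all). Relative to the spike-ins 2 of 7 were above (21.5% of all) and 1 of 7, miR-4454, was below (2.58% of all). In the plot of all probes, 44 of the 503 had a scaled log2 difference higher than that of miR-1290 and 52 higher than that of miR-1246. At the other end 27 had one lower than that of miR-4454.

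**Figure D4:**
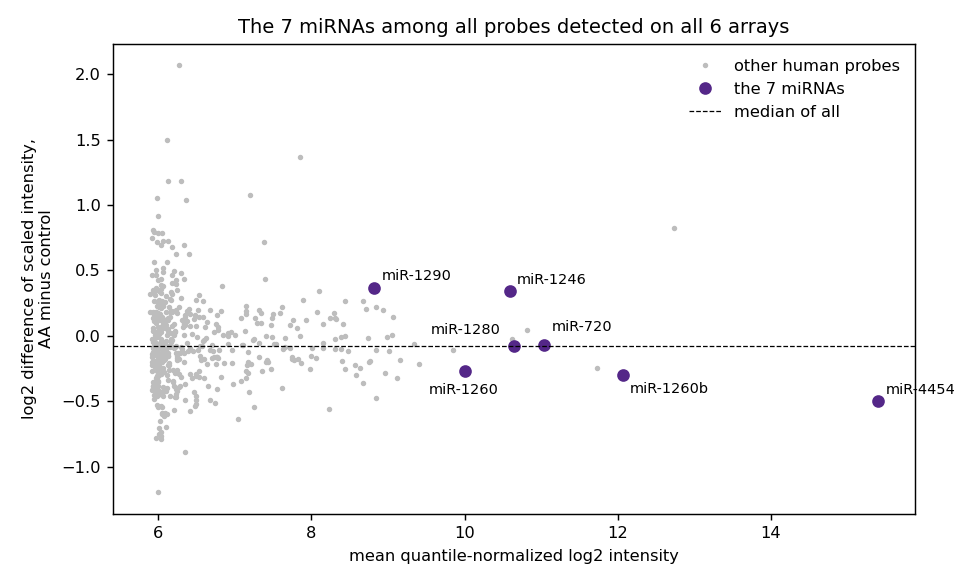
Log2 difference in scaled intensity, AA minus control (vertical axis), against mean quantile-normalized log2 intensity (horizontal axis) for the probes detected on all 6 arrays, with the 7 miRNAs in purple and the median of all as a dashed line. miR-4454 is the brightest point, at -0.50, and miR-1290 and miR-1246 lie at 0.37 and 0.34.

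Ratios between members on the same array do not depend on a scaling factor for the whole array, so they were compared across groups. The pairs were examined after the values had been seen. The log2 ratio of miR-1246 to miR-1290 was 1.89 ± 0.294 with AA and 1.92 ± 0.411 in control, a difference of -0.03. For the near copies miR-1260 and miR-1260b it was -1.99 ± 0.296 with AA and -2.02 ± 0.226 in control, a difference of 0.03. For miR-720 and miR-1280 it was 0.34 ± 0.168 with AA and 0.33 ± 0.133 in control, a difference of 0.01. In these 3 pairs the groups overlapped and the difference was smaller than the spread between arrays. The other pairs without miR-1246 or miR-1290 differed more, though their groups overlapped as well. Their differences ran from -0.42 for miR-4454 to miR-720 up to 0.225 for miR-720 to miR-1260b.

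Some ratios that set miR-1290 or miR-1246 against another member differed more. The log2 ratio of miR-1290 to miR-1260b was -3.03, -2.95 and -2.79 on the AA arrays, against -3.68, -3.66 and -3.44 on the control arrays, a difference of 0.67 without overlap. That of miR-4454 to miR-1290 was 6.36, 6.42 and 6.14 on the AA arrays, against 7.26, 7.06 and 7.21 on the control arrays, a difference of -0.87. For miR-4454 to miR-1246 the difference was -0.84, also without overlap. Set against miR-4454 in this way, 2 of the other 6 members were higher on every AA array, miR-1246 and miR-1290, and so were 48.4% of the 502 other probes. Of the 10 pairs that set miR-1246 or miR-1290 against another member, 8 had groups that did not overlap, and of the 11 other pairs 0 did. These 2 members were set apart after their larger ratios had been seen, so the split restates those ratios. In size the 2 sets of pairs met, with -0.41 for miR-720 to miR-1246 and -0.42 for miR-4454 to miR-720. Among all pairs of the 503 probes 20.5% did not overlap. Pairs share probes and arrays, so these counts are a description, and no p is given.

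**Figure D5:**
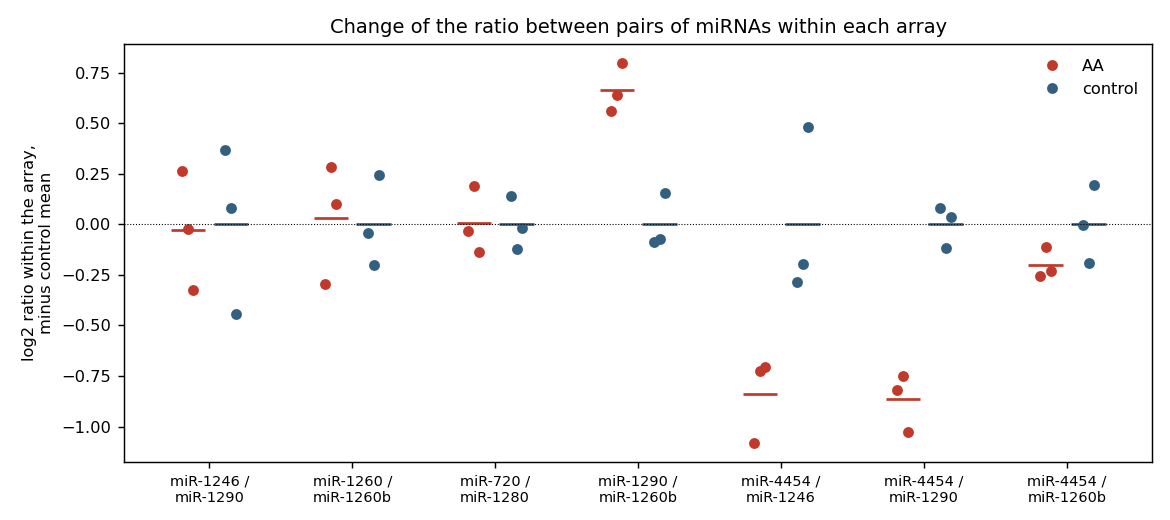
Log2 ratio of 2 miRNAs on the same array, minus the mean of the control arrays for that pair (vertical axis), with 3 AA and 3 control points and the mean as a bar. The pairs miR-1246/miR-1290, miR-1260/miR-1260b and miR-720/miR-1280 lie around 0 in both groups, while AA points are higher for miR-1290/miR-1260b and lower for miR-4454 over miR-1246 or miR-1290.

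The tested probe outside the group with the most similar pattern was found for each member by the root mean square difference of centred, quantile-normalized log2 values over the 6 arrays. It was miR-4488 for miR-1290, at 0.113 against a median of 0.236 over all tested probes, and miR-3940-5p for miR-1246, at 0.121 against 0.297. Both had a positive difference of 0.27. Nearest to miR-720 was miR-103a (0.12), to miR-1260 miR-26a (0.0687), to miR-1280 miR-130b (0.106) and to miR-1260b let-7d (0.283). The flat pattern of miR-4454 on this scale is set by the method, so its nearest probe is not given.

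Other annotated miRNAs that lie in small nucleolar, ribosomal, vault, Y or transfer RNA genes were listed as a comparison, 21 names in all. Of these 14 had a probe, 10 were tested and 0 of the 10 passed in the limma fit (0.960% of all tested probes did), while 4 had an unadjusted p under 0.05 (15.0% of all did), 3 lower and 1 higher with AA. Their median log2 difference was 0.01 with quantile normalization and -0.11 on the scaled intensities of 8. The brightest, miR-3648 from ribosomal RNA, had a scaled intensity of 792 ± 32.1 with AA and 825 ± 39.7 in control (SD, n = 3 each), and miR-663 had 151 ± 10.4 with AA and 141 ± 6.63 in control. Of the small nucleolar RNA types, miR-3651 had 71.1 ± 10.1 with AA and 80.4 ± 16.9 in control, and miR-664 had 59.0 ± 7.26 with AA and 83.6 ± 5.71 in control. For miR-3647-3p the values were 38.2 ± 2.69 with AA and 55.3 ± 5.08 in control, and for miR-3607-3p 38.8 ± 3.67 with AA and 35.8 ± 13.9 in control. The limma adjusted p was 0.114 for miR-664 and 0.101 for miR-3647-3p. A transfer RNA type of this list, miR-3676, was dim, at 9.31 ± 1.35 with AA and 15.6 ± 1.81 in control (limma adjusted p = 0.182). The 1 that was higher, miR-3687, had 29.5 ± 1.01 with AA and 21.1 ± 3.91 in control (limma adjusted p = 0.198). These last miRNAs, miR-3676 and miR-3687, are named after their values were seen.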

How the data were processed

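Per the file headers, the deposited intensity of each spot came raw, background-subtracted and globally normalized, beside an average and a coefficient of variation (a ratio, not used), for 1 array of 3136 spots. The series table held the globally normalized intensity again for 1711 of the 1719 human probes. Scanner and platform are not given in the sources used here. Raw intensity was background-corrected (normexp, offset 50), and human probes were quantile normalized and tested with limma 3.58.1 in R 4.3.3, group as the only term and Benjamini-Hochberg adjustment over the 625 probes that 1 group or both had detected on all its arrays. Scaled intensity is background-subtracted intensity with the median of the 503 probes detected on all 6 arrays set to 25. No value of the 7 members carried an outlier mark. The members, lists, tests and named probes (all members, the nearest probe to each, the 5 brightest and up to 6 of the comparison list) were chosen with earlier results of these data known. The fit was tested on simulated data. Alternatives changed scaling, offset, filter, variance model, weights, block and threshold, and left out each array. The number of arrays limits the precision.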

Additional observations from a re-analysis of the deposited data

How the results depend on the processing

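For the 6 members other than miR-4454, whose quantile-normalized difference of 0 has no sign, 168 alternative values were set against the quantile-normalized ones. The sign changed in 16, the threshold was passed in 8, both held in 1 (miR-720 unnormalized) and neither in 145. A change of filter, variance model, block or threshold alone left the difference as it was, so there the sign could not change. The sign turned for miR-720, miR-1280, miR-1260 and miR-1260b with median scaling (0.27, 0.26, 0.076 and 0.053) and without normalization (0.44, 0.43, 0.25 and 0.23). It turned for miR-720 and miR-1280 with the 75th percentile (0.19 and 0.18), and for miR-720, miR-1280 and miR-1260 on the spike-ins (0.20, 0.19 and 0.0016). On the scaled intensities, miR-720 and miR-1280 turned without AA replicate 2 (0.047 and 0.13), and miR-1280 without control replicate 2 (0.054). The cause was not tested. The threshold was passed by 1 member under median scaling, by 3 at the 75th percentile and by 3 unnormalized, and 1 had an adjusted p under 0.1. With single arrays left out it was passed by 0 to 1, the 1 being miR-1290 without control replicate 2 (limma adjusted p = 0.0423, range over its alternatives 0.000517 to 0.937). All probes called numbered 6 in the quantile fit, 37, 245 and 310 with those 3 scalings, 20 on the spike-ins, 1 on the authors' values, 10 with trend and robust and 14 below an adjusted p of 0.1. Fits lacking 1 array called 3 to 5, or 1 to 4 on the scaled intensities, where the replicate block gave 1. With the replicate block, the quantile fit called 0 of 7 members and 4 probes. Samples sharing a number did not deviate together (r = -0.139, -0.178 and 0.00765), and those with unlike numbers had r from -0.0999 to 0.21. With 3 arrays a group, such correlations cannot show whether the numbers pair samples. The members' share of signal differed by -7.76 percentage points, AA minus control, by -3.57 without background subtraction, and by -8.82 to -5.86 with 1 array left out. Quantile normalization over the other probes gave miR-4454 no value, since it lay above all of them.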
